A study of Mus musculus with 6 samples.

Results

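The genes described are 37 genes of the lysosome, the acidic compartment in which cells break down proteins, sugars and lipids. They are 14 subunits and 2 accessory proteins of its proton pump, 7 glycosidases, 5 genes of lipid breakdown and lipid transfer, 4 membrane proteins, the protease legumain and the thiol reductase GILT, and 3 transcription factors of the TFEB family. Members were taken by symbol from the deposited tables, which hold 36706 genes each, with no threshold on measured values. All 37 were found, and all 37 were among the 14011 genes tested.

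Messenger RNA was sequenced from wild-type mouse bone marrow cells cultured with 20 ng/mL GM-CSF, a cytokine under which precursors become dendritic cells and macrophages, with medium changes on day 3 and day 5. Every culture received interferon gamma (IFN-γ); 3 libraries are of IFN-γ alone and 3 of IFN-γ together with 4-octyl itaconate (4-OI), a cell-permeable ester of the metabolite itaconate. The comparison asked what 4-OI changed in cells given IFN-γ; no library came from cells without IFN-γ. Dose, duration, animal and strain are not given in the labels, and the sample titles name the cells BMDMs while the cell type label says dendritic cells. Of dendritic cell markers, Itgax stood at 514 CPM (reads scaled to library size) with IFN-γ alone, Flt3 at 16.2 and Zbtb46 at 15.5, while Xcr1 and Cd209a were near 0, at 0.405 and 0.0650. The macrophage genes Adgre1, Csf1r and Cd14 stood at 875, 677 and 905 CPM in the same libraries, so the cultures held RNA typical of both cell types.

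The lysosomal lumen is kept acidic by the V-ATPase, a rotary proton pump. Its cytosolic V1 sector splits ATP, and its membrane V0 sector carries the protons. Soluble hydrolases that work at acidic pH fill the lumen, glycosylated membrane proteins line it, and NPC2 and NPC1 pass cholesterol out of it after acid lipase has freed it from esters. TFEB, TFE3 and MITF are related transcription factors that bind a short palindrome in the promoters of many lysosomal genes and are held in the cytosol when the kinase mTORC1 is active. In antigen-presenting cells the lysosome and its precursors are also where proteins are cut for presentation on MHC class II.

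Libraries held 19656368 to 29244717 counts, at which 3 counts correspond to 0.102 to 0.163 CPM, and each member had at least 301 counts in every library. The 6 libraries separated by group on the first principal component, with 79.5% of the variance. On the second, IFN-γ replicate 1 lay away from the other 2 of its group (10.7%), and 4-OI replicate 3 from the other 2 of its own. Nothing in the labels says that replicates came from separate cultures, so the p-values reflect only how far these libraries spread, which may be technical. Values are CPM after TMM scaling, which sets the bulk of genes equal between libraries. Changes are fold changes of edgeR's quasi-likelihood fit, called higher or lower at a Benjamini-Hochberg adjusted p under 0.05 over all genes tested.

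With 4-OI, 22 of the 37 lysosomal genes were called higher and 3 lower, and 12 did not pass. Over all genes tested, 22.7% were called higher and 25.4% lower, or 48.1% in all. The median log2 fold change of the members was 0.43, against -0.01 for all genes tested. By class, 3 of 6 V0 genes, 6 of 8 V1 genes, 1 of 2 pump accessory genes, 4 of 7 glycosidases, 3 of 5 lipid genes, 4 of 4 membrane proteins, 0 of 2 for legumain and GILT, and 1 of 3 transcription factors were higher. The 3 that fell were Atp6v0a1, Gusb and Mitf. The groups did not overlap for 25 members that were higher and 4 that were lower in every library with 4-OI; over all genes tested these shares were 28.9% and 30.6%, or 59.5% in all. Lipa changed most, 7.27-fold, and the median fold change of the members was 1.35, so most changes were modest. In whole cultures, fewer cells of a type and less RNA per cell cannot be told apart. Without 4-OI replicate 1 or 2, only 1 member, Atp6v0a1, was called lower. Scaled by total counts alone, 13 members were higher and 9 lower, because that scaling moved the median of all genes tested to -0.27, and over all genes the share of calls that were higher went from 47.2% to 24.0%. With that scaling the median of the members was 0.17. A change of scaling moves all genes of a library by the same factor. It could therefore hardly alter the distance between the median of the members and that of all genes tested, and that distance is no further support.

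**Figure D1:**
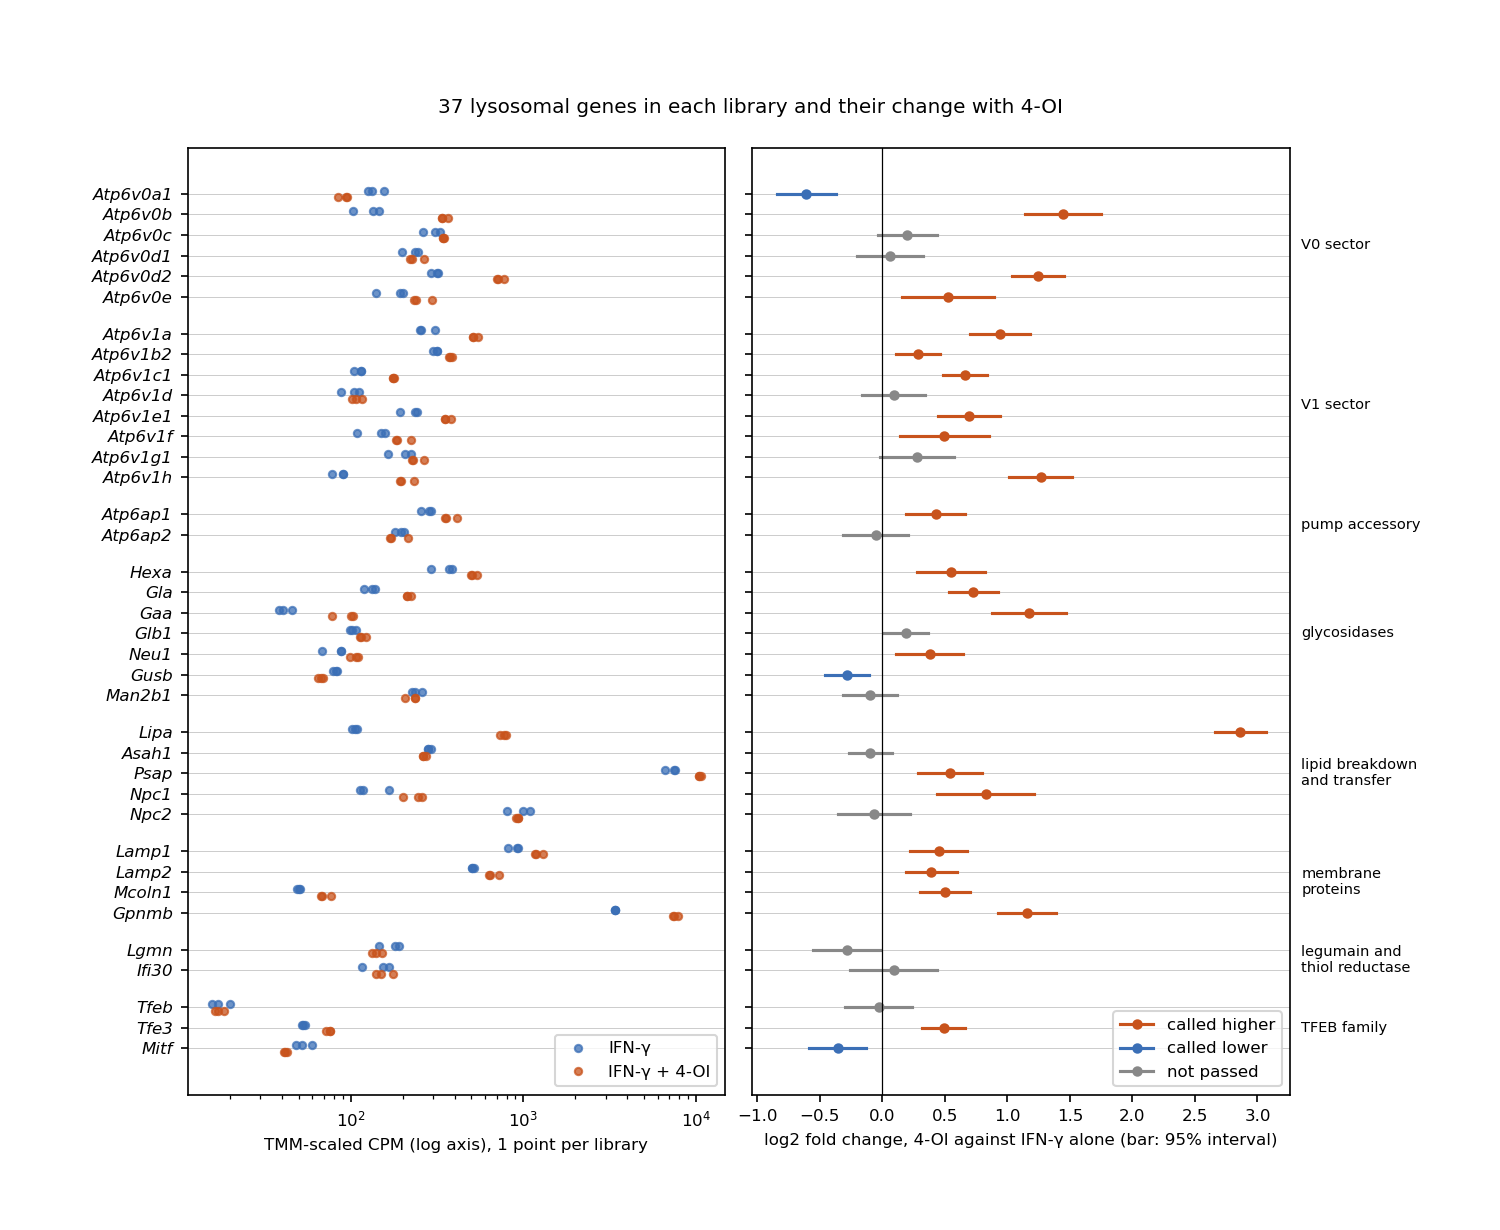
Left, TMM-scaled CPM of each of the 37 genes on a log axis, 1 point for each of 3 IFN-γ libraries (blue) and 3 libraries with IFN-γ and 4-OI (orange). Right, log2 fold change of 4-OI against IFN-γ alone with its 95% interval, coloured by call; Lipa lies far to the right at 2.86, all 4 membrane proteins are higher, and Atp6v0a1, Gusb and Mitf are the 3 called lower (with total-count scaling 13 are higher and 9 lower).

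The V0 sector divided, with 3 of its 6 genes higher, 1 lower and 2 not passed. Atp6v0b, which encodes the c'' subunit of the proton-carrying ring, had 104, 146 and 134 CPM with IFN-γ alone and 338, 339 and 368 CPM with 4-OI. Every 4-OI library lay above every IFN-γ library, and the gene was 2.72-fold higher (log2 fold change 1.44, SE 0.13; adjusted p from edgeR = 7.38e-05). The deposited tables place it on chromosome 4, 117741523 to 117744548, minus strand. Atp6v0c, which encodes the c subunit that makes up most of that ring, had 261, 309 and 329.6 CPM with IFN-γ alone and 342, 349 and 344 CPM with 4-OI. Here the groups lay close together without overlapping, and the difference did not pass (log2 fold change 0.20, 95% interval -0.03 to 0.44; edgeR adjusted p = 0.139). Without IFN-γ replicate 1 its log2 fold change was 0.10, with that library and 4-OI replicate 3 left out it passed at 0.11 (edgeR adjusted p = 0.0299), and total-count scaling turned it to -0.055. Atp6v0e, a small membrane subunit, had 139, 202 and 194 CPM with IFN-γ alone and 234, 239 and 297 CPM with 4-OI. It was 1.44-fold higher (edgeR adjusted p = 0.0266), with IFN-γ replicate 1 lowest and 4-OI replicate 3 highest. Its call was lost without 4-OI replicate 2 or 3 (edgeR adjusted p = 0.0515 and 0.0975), its log2 fold change was 0.26 without IFN-γ replicate 1 and 4-OI replicate 3, against 0.52, and the call was also lost with total-count scaling.

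The d subunit joins the ring to the stalk of V1, and 2 genes encode it. Atp6v0d2, the form known from osteoclasts and macrophages, had 291, 321 and 316 CPM with IFN-γ alone and 715, 708 and 777 CPM with 4-OI. The groups were far apart, with a log2 fold change of 1.25, SE 0.09 (adjusted p from edgeR = 2.18e-05). Its deposited position is chromosome 4, 19876838 to 19922566, minus strand. Atp6v0d1, the form found in most cells, had 197, 247 and 237 CPM with IFN-γ alone and 220.5, 228 and 264 CPM with 4-OI. Its groups overlapped, and the log2 fold change was 0.07 with a 95% interval of -0.20 to 0.33 (edgeR adjusted p = 0.669), which turned to -0.033 without IFN-γ replicate 1, -0.013 without 4-OI replicate 3, -0.11 without both, where it passed as lower (edgeR adjusted p = 0.0306), and -0.20 with total-count scaling. Levels of different genes are set side by side as deposited TPM, which divide counts by gene length. On that scale Atp6v0d2 made up 37.4, 34.6 and 35.1% with IFN-γ alone and 56.8, 55.8 and 54.4% with 4-OI of the 2 d genes together. By TPM the larger share thus lay with Atp6v0d1 in all 3 IFN-γ libraries and with Atp6v0d2 in all 3 with 4-OI. The difference was 20.0 percentage points. That change of order depends on the lengths used, 4069 bases for Atp6v0d2 and 1650 for Atp6v0d1. In CPM, which are not divided by length, Atp6v0d2 was above Atp6v0d1 in every library of both groups.

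The a subunit, which holds the proton channel's path and directs the pump to its membrane, has several forms as well. Atp6v0a1, the a1 form, was the V0 gene that fell, with 155, 127 and 133 CPM with IFN-γ alone and 93.3, 94.9 and 84.1 CPM with 4-OI. No 4-OI library reached the lowest IFN-γ library, and the gene was 1.53-fold lower (log2 fold change -0.61, SE 0.10; adjusted p from edgeR = 0.00174). Its deposited position is chromosome 11, 100899262 to 100954545, plus strand. The a2 gene Atp6v0a2 and the a3 gene Tcirg1, neither of them a member, did not pass in edgeR (log2 fold changes -0.26 and 0.25, adjusted p = 0.0600 and 0.0677). By TPM, Atp6v0a1 made up 29.4, 24.2 and 24.1% with IFN-γ alone and 16.6, 16.6 and 16.8% with 4-OI of the 3 forms. Tcirg1, the form of osteoclasts and of lysosomes in phagocytes, was the most abundant in all 6 libraries, with 60.2, 66.8 and 67.6% with IFN-γ alone and 75.7, 76.0 and 75.5% with 4-OI. For each of these 3 forms the shares of both groups did not overlap. Of 10 marker genes of osteoclasts, which use Atp6v0d2 and Tcirg1, 8 were tested and 6 were lower, while Ctsk and Itgb3 were higher. Among all genes tested, 25.4% were called lower and 22.7% higher. The summed level of the 10 markers was 339 to 380.3 CPM with IFN-γ alone and 384 to 389 CPM with 4-OI, with Calcr and Oscar near 0. The part of osteoclasts in these shares of the a and d subunits was not tested.

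**Figure D2:**
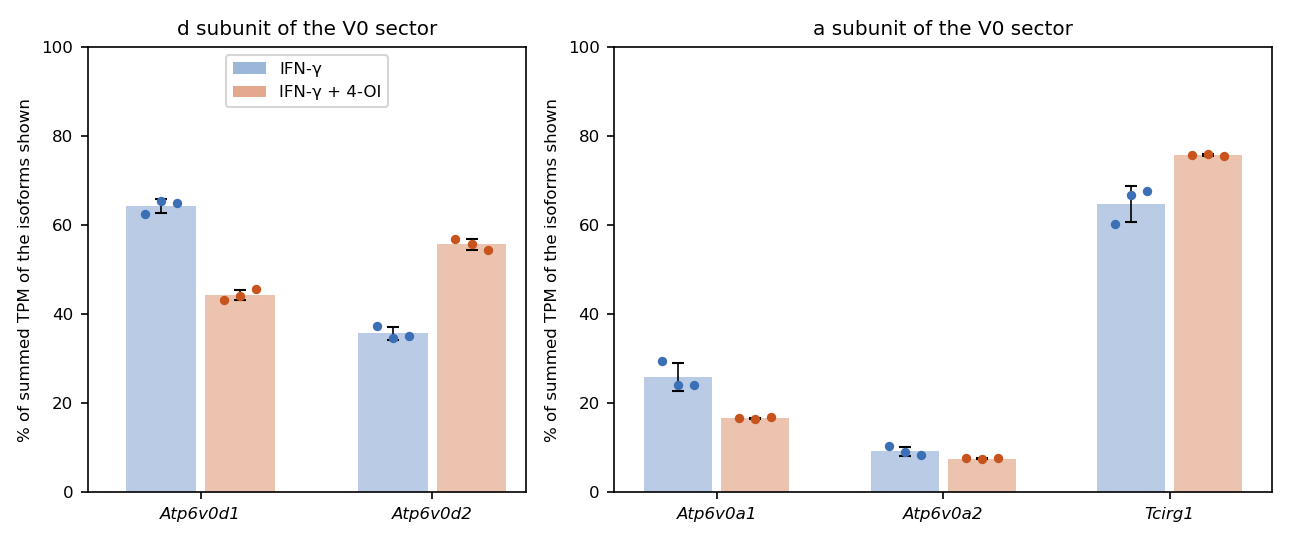
Share of each gene in the summed TPM of the d subunit genes (left) and of the a subunit genes (right), in percent; points are the 3 libraries of each group, bars their mean and whiskers 1 SD. Atp6v0d2 went from a mean of 35.7% to 55.7%, and Atp6v0a1 from 25.9% to 16.7%.

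In the V1 sector 6 of 8 genes were higher and none was lower. Atp6v1h, the regulatory H subunit, had 78.0, 90.5 and 90.2 CPM with IFN-γ alone and 196, 192 and 234 CPM with 4-OI, and was 2.40-fold higher (log2 fold change 1.27, SE 0.11; adjusted p from edgeR = 5.34e-05). Atp6v1a, the catalytic A subunit, which splits ATP, had 309, 254 and 251 CPM with IFN-γ alone and 544, 510.2 and 509 CPM with 4-OI. The lowest 4-OI library was well above the highest IFN-γ library, and the log2 fold change was 0.94, SE 0.10 (adjusted p from edgeR = 2.10e-04). Atp6v1b2, the B subunit that alternates with A in the head, had 301, 316 and 314 CPM with IFN-γ alone and 373, 376 and 386 CPM with 4-OI. No group overlap was seen, and it was 1.22-fold higher (edgeR adjusted p = 0.0154). That call was lost with no filter on low counts, with total-count scaling (log2 fold change 0.026) and without any 1 of IFN-γ replicate 3 and 4-OI replicates 1 and 2 (edgeR adjusted p = 0.0557, 0.0541 and 0.0587). Atp6v1e1 and Atp6v1c1, the stalk subunit E and the C subunit that links the stalks, were higher by 0.69 and 0.66 on the log2 scale (edgeR adjusted p = 0.00115 and 2.44e-04). In Atp6v1c1 the libraries of each group lay close, at 104, 114 and 115 CPM with IFN-γ alone and 176, 176 and 177 CPM with 4-OI, though 26.2% of its exon bases are shared with a predicted gene on the opposite strand, which had at most 29 counts in a library.

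The remaining V1 subunits are small parts of the shaft and the stalks. Atp6v1f, subunit F of the rotating shaft, had 108, 159 and 151 CPM with IFN-γ alone and 182, 185 and 223 CPM with 4-OI. It passed at 1.41-fold (edgeR adjusted p = 0.0294), but not without 4-OI replicate 2 or 3 (edgeR adjusted p = 0.0583 and 0.106) or with total-count scaling, and its log2 fold change was 0.25 without IFN-γ replicate 1 and 4-OI replicate 3, against 0.50. Atp6v1g1, the G subunit that pairs with E in the stalks, had 164, 225 and 206 CPM with IFN-γ alone and 227, 231 and 265 CPM with 4-OI. Its groups were adjacent without overlapping, and it did not pass (log2 fold change 0.28, 95% interval -0.02 to 0.57; edgeR adjusted p = 0.111). Leaving out IFN-γ replicate 1 gave a log2 fold change of 0.15. Atp6v1d, the shaft subunit D, overlapped between groups, at 88.0 to 112 and 101 to 116 CPM (log2 fold change 0.09, 95% interval -0.16 to 0.34). Its direction turned without IFN-γ replicate 1 (-0.0093), without that library and 4-OI replicate 3 (-0.061) and with total-count scaling (-0.17).

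The accessory proteins are needed to assemble the pump and set its traffic. Atp6ap1 had 254, 293 and 285 CPM with IFN-γ alone and 350.0, 356 and 414 CPM with 4-OI. It was 1.35-fold higher (edgeR adjusted p = 0.00954), though not with total-count scaling (edgeR adjusted p = 0.117). Atp6ap2, also known as the prorenin receptor, had 179, 203 and 195 CPM with IFN-γ alone and 172, 169 and 215 CPM with 4-OI. These groups overlapped, with a log2 fold change of -0.05 and a 95% interval of -0.31 to 0.21. With IFN-γ replicate 1 and 4-OI replicate 3 left out it was -0.22 (edgeR adjusted p = 3.91e-05), and with total-count scaling -0.32 (edgeR adjusted p = 0.0183). Without 4-OI replicate 1 or 2 its direction turned (0.00576 and 0.015).

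The spread between libraries of 1 group moved with gene length. IFN-γ replicate 1 was the lowest of its group for all 9 members shorter than 2000 bases (Atp6v0b, Atp6v0c, Atp6v0d1, Atp6v0e, Atp6v1d, Atp6v1e1, Atp6v1f, Atp6v1g1 and Ifi30), and 4-OI replicate 3 was the highest of its group for 8 of them. Across the 37 members, the deviation of a gene from its group mean in log2 CPM had a Pearson correlation with log2 length of 0.71 in IFN-γ replicate 1, -0.66 and -0.67 in replicates 2 and 3, and 0.48, 0.38 and -0.48 in 4-OI replicates 1, 2 and 3. Across 14010 tested genes the same correlations were 0.53, -0.43, -0.37, 0.18, 0.09 and -0.22, with the same sign as in the members in each library; the points share library, depth and scaling, and deviations within a group sum to 0. The fold changes of the members had a correlation of -0.12 with log2 length, and -0.09 over all tested genes. The median log2 fold change of the 9 short members was 0.28 and that of the other 28 was 0.44, and these were 0.11 and 0.35 without IFN-γ replicate 1 and 4-OI replicate 3. Without these 2 libraries 24 members were higher and 8 lower, as against 22 and 3, while over all genes the calls went from 3181 to 4601 higher and from 3555 to 4695 lower.

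**Figure D3:**
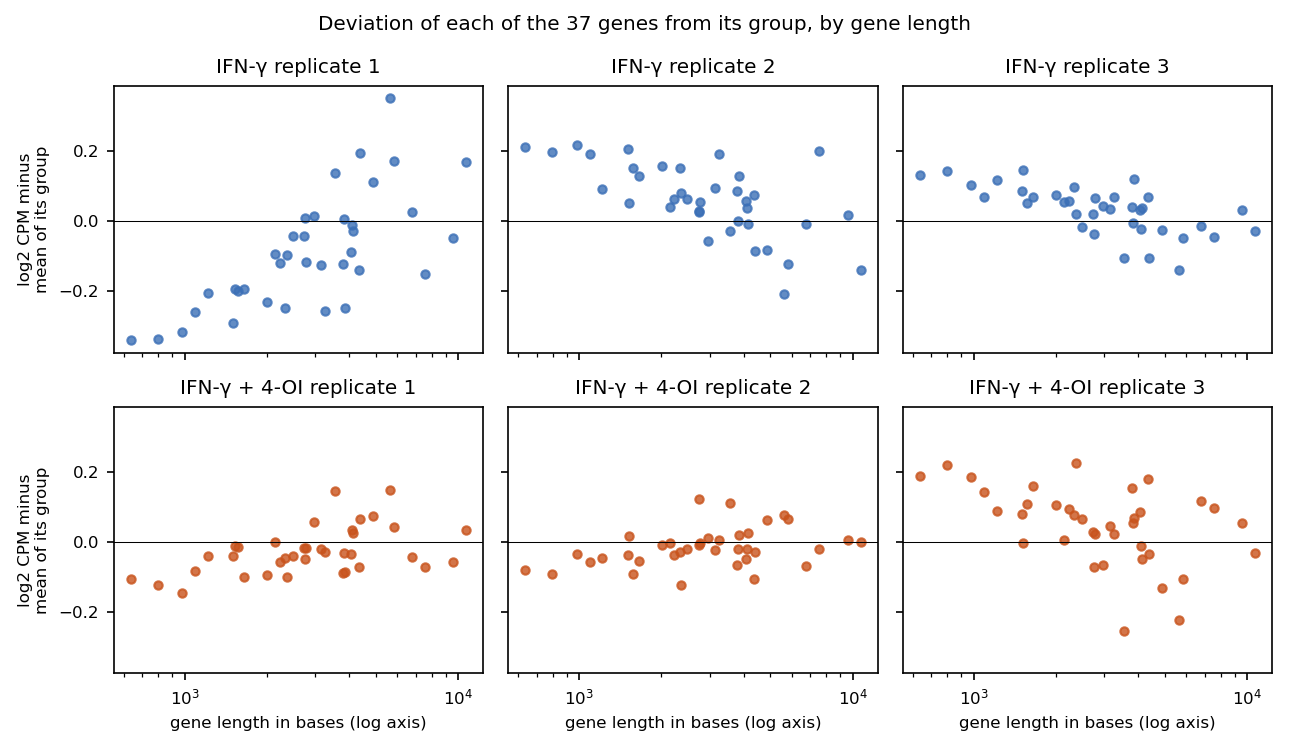
Log2 CPM of each of the 37 genes minus the mean of its group (vertical), against gene length in bases on a log axis (horizontal), 1 panel per library. In IFN-γ replicate 1 short genes lie below 0 and long genes nearer or above it (r = 0.71), and in 4-OI replicate 3 the short genes lie above 0 except Atp6v0c, just below it (r = -0.48).

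Of the 7 glycosidases, which strip sugars from glycoproteins, glycolipids and glycogen, 4 were higher and 1 lower. Gaa, acid alpha-glucosidase, which breaks down glycogen, had 45.6, 40.6 and 38.5 CPM with IFN-γ alone and 103, 101 and 78.1 CPM with 4-OI. The 4-OI libraries were all above the IFN-γ libraries, and it was 2.25-fold higher (log2 fold change 1.17, SE 0.13; adjusted p from edgeR = 1.85e-04). Gla, alpha-galactosidase A, which removes galactose from glycolipids, had 119, 139 and 133 CPM with IFN-γ alone and 212, 212 and 222 CPM with 4-OI, a log2 fold change of 0.73, SE 0.08 (adjusted p from edgeR = 2.62e-04). Hexa, the alpha chain of beta-hexosaminidase, had 294, 387 and 373 CPM with IFN-γ alone and 497, 503 and 540.5 CPM with 4-OI. It was 1.46-fold higher with no overlap (edgeR adjusted p = 0.00621). Neu1, the lysosomal sialidase, was 1.30-fold higher, from 81.5 ± 11.5 to 106 ± 5.79 CPM (SD, n = 3) (edgeR adjusted p = 0.0283), which was lost without 4-OI replicate 2 or 3 (edgeR adjusted p = 0.0857 and 0.0886) and with total-count scaling. Its log2 fold change was 0.23 without IFN-γ replicate 1 and 4-OI replicate 3, against 0.38.

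Gusb, beta-glucuronidase, often used as a reference gene, had 78.6, 82.3 and 83.1 CPM with IFN-γ alone and 64.2, 67.0 and 69.4 CPM with 4-OI. It fell by 0.28 on the log2 scale (edgeR adjusted p = 0.0173), a small change whose call was lost without any 1 of IFN-γ replicates 2 and 3 and 4-OI replicates 1 and 2 (edgeR adjusted p = 0.0655, 0.0901, 0.0938 and 0.0728) and with no filter. Of the exon bases of Gusb, 44.4% are shared with Vkorc1l1 on the opposite strand, which had 70 to 132 counts in a library. Glb1, beta-galactosidase, had 99.6, 107 and 102 CPM with IFN-γ alone and 114, 115 and 122 CPM with 4-OI, with all 4-OI libraries above all IFN-γ libraries, but it did not pass (log2 fold change 0.19, 95% interval 0.01 to 0.36; edgeR adjusted p = 0.0775). With IFN-γ replicate 1 and 4-OI replicate 3 left out Glb1 passed at 0.13 (edgeR adjusted p = 0.0107), and total-count scaling turned it to -0.073. Man2b1, lysosomal alpha-mannosidase, overlapped at 228 to 261 and 205 to 237 CPM (log2 fold change -0.10, 95% interval -0.32 to 0.12). It was -0.047 without IFN-γ replicate 1, -0.029 without 4-OI replicate 3 and 0.023 without both, and it passed as lower with total-count scaling (-0.35; edgeR adjusted p = 0.0361).

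Lipa, lysosomal acid lipase, which frees cholesterol and fatty acids from esters taken up by the cell, had 106, 101 and 108 CPM with IFN-γ alone and 795, 770.4 and 730.5 CPM with 4-OI. Each group lay close around its mean, 105 and 765 CPM, and the gene was 7.27-fold higher (log2 fold change 2.86, SE 0.09; adjusted p from edgeR = 1.70e-06). The log2 fold change was 2.60 to 2.90 over the 15 other settings tried. Its deposited position is chromosome 19, 34469716 to 34504874, minus strand. By TPM, Lipa ranked at place 27 of the 37 members in each IFN-γ library and at place 8 in each library with 4-OI. Npc1, the membrane protein that takes over cholesterol freed in the lumen, had 166, 113 and 118 CPM with IFN-γ alone and 259, 246 and 200.1 CPM with 4-OI. IFN-γ replicate 1 was high and 4-OI replicate 3 low, and the gene was 1.77-fold higher (log2 fold change 0.83, SE 0.17; adjusted p from edgeR = 0.00441). Npc2, the soluble protein that hands cholesterol to NPC1, had 799.8, 1092 and 1002 CPM with IFN-γ alone and 905, 926 and 937 CPM with 4-OI. Its groups overlapped and it did not pass (log2 fold change -0.06, 95% interval -0.35 to 0.22; edgeR adjusted p = 0.701). With IFN-γ replicate 1 and 4-OI replicate 3 left out it was -0.19 (edgeR adjusted p = 8.73e-04), with total-count scaling -0.32 (edgeR adjusted p = 0.0404), and leaving out IFN-γ replicate 2 turned it to 0.043.

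Psap encodes prosaposin, the precursor of the saposins that present glycolipids to hydrolases, and was the most abundant member in every library. It had 6639, 7473 and 7544 CPM with IFN-γ alone and 10374, 10475 and 10679 CPM with 4-OI. With no overlap between groups it was 1.46-fold higher (log2 fold change 0.54, SE 0.11; adjusted p from edgeR = 0.00441), and took 0.746% to 0.819% of all counts with IFN-γ alone and 0.919% to 0.990% with 4-OI. Asah1, acid ceramidase, had 281, 291 and 279 CPM with IFN-γ alone and 272, 262 and 263 CPM with 4-OI. Each 4-OI library lay below each IFN-γ library, by little, and it did not pass (log2 fold change -0.10, 95% interval -0.27 to 0.07; edgeR adjusted p = 0.318). With total-count scaling it was -0.35 (edgeR adjusted p = 0.00698), and 16.2% of its exon bases are shared with Frg1 on the same strand, which had 839 to 1498 counts in a library.

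All 4 membrane proteins were higher, and in none did the groups overlap. Gpnmb, a glycoprotein of the lysosomal and melanosomal membrane that marks lipid-laden macrophages, had 3405, 3395 and 3379 CPM with IFN-γ alone and 7405, 7466 and 7859 CPM with 4-OI. The 3 IFN-γ libraries lay close together, and the rise was 2.23-fold (log2 fold change 1.16, SE 0.10; adjusted p from edgeR = 5.17e-05). Its deposited position is chromosome 6, 49013449 to 49044413, plus strand. Lamp1 and Lamp2 coat the inner face of the membrane and were abundant. Lamp1 had 816, 927 and 924 CPM with IFN-γ alone and 1169, 1185 and 1297 CPM with 4-OI and Lamp2 517, 505 and 503 CPM with IFN-γ alone and 645, 634 and 721 CPM with 4-OI. Both rose modestly, 1.37-fold and 1.31-fold (edgeR adjusted p = 0.00632 and 0.00741). Mcoln1, the calcium channel TRPML1, had 50.1, 50.8 and 48.6 CPM with IFN-γ alone and 67.9, 76.5 and 66.9 CPM with 4-OI, a 1.41-fold rise (edgeR adjusted p = 0.00191). The calls of Lamp1, Lamp2 and Mcoln1 were lost with total-count scaling (edgeR adjusted p = 0.0714, 0.190 and 0.0870), and that of Gpnmb was not lost under any of the 15 other settings.

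The protease and the thiol reductase of antigen processing did not pass. Lgmn encodes legumain, which cuts after asparagine and takes part in processing antigens and cathepsins. It had 146, 191 and 180.5 CPM with IFN-γ alone and 132, 140.3 and 152 CPM with 4-OI. Replicate 1 of IFN-γ lay within the range of the 4-OI libraries and the other 2 above it, with a log2 fold change of -0.28 (95% interval -0.55 to -0.02; edgeR adjusted p = 0.0755). Lgmn passed as lower without IFN-γ replicate 1 (log2 fold change -0.40, edgeR adjusted p = 0.00140), without that library and 4-OI replicate 3 (-0.45) and with total-count scaling (edgeR adjusted p = 0.00267). It also passed as lower with the replicate number as a block. Ifi30 encodes GILT, an IFN-γ-inducible enzyme that opens disulfide bonds in antigens. It had 116, 167 and 154 CPM with IFN-γ alone and 139, 151 and 175 CPM with 4-OI. The groups overlapped, with a log2 fold change of 0.09 (95% interval -0.25 to 0.44; edgeR adjusted p = 0.648) that turned to -0.058 without IFN-γ replicate 1, to -0.15 (edgeR adjusted p = 0.00748) without that library and 4-OI replicate 3, and to -0.17 with total-count scaling.

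Of the 3 transcription factor genes 1 was higher, 1 was lower and 1 did not pass. Tfe3 had 52.2, 52.9 and 54.5 CPM with IFN-γ alone and 76.0, 75.9 and 72.2 CPM with 4-OI. Its groups were well apart and it was 1.40-fold higher (log2 fold change 0.49, SE 0.08; adjusted p from edgeR = 0.00109), though not with total-count scaling (edgeR adjusted p = 0.0670). Mitf, the factor of melanocytes, mast cells and osteoclasts, had 59.9, 48.4 and 52.3 CPM with IFN-γ alone and 42.7, 41.7 and 40.9 CPM with 4-OI. It fell by 0.36 on the log2 scale without overlap (edgeR adjusted p = 0.0179), and the call was lost without any 1 of the 3 libraries with 4-OI (edgeR adjusted p = 0.0548, 0.0682 and 0.0608). Of 11 markers of mast cells and basophils, which carry Mitf, all 7 tested were lower, beside 25.4% of all genes tested. Their summed level was 346 to 378 CPM with IFN-γ alone and 106 to 114 with 4-OI, while Mcpt4, Cma1 and Tpsb2 were at or near 0. Most tested markers of some other cell types were lower as well, with 8 of 10 monocyte genes and 9 of 12 tested genes of conventional dendritic cells. The part of mast cells and basophils in the fall of Mitf was not tested. Tfeb had 15.7, 20.1 and 16.9 CPM with IFN-γ alone and 16.3, 16.9 and 18.4 CPM with 4-OI. These overlapped, with a log2 fold change of -0.03 (95% interval -0.29 to 0.23; edgeR adjusted p = 0.848), whose direction turned without IFN-γ replicate 2 (0.088) and without 4-OI replicate 1 (0.011), and which passed as lower with total-count scaling (-0.29; edgeR adjusted p = 0.0482). Tfec, the fourth gene of the family and no member, did not pass either (log2 fold change -0.19; edgeR adjusted p = 0.128). These are levels of messenger RNA; the proteins are regulated by their place in the cell, which was not measured.

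The palindrome that TFEB and its relatives bind, the CLEAR element, was looked for in RefSeq promoter windows of GRCm38.p6, from 250 bases before to 50 after the start site, which were found for 30 of the 37 members. Stretches upstream of the start site are shown for 3 genes that rose and hold the core or several E-boxes (Gla, Mcoln1 and Lamp1), for Atp6v1a of the pump, and for Ifi30, which holds the core and did not pass; capitals mark the core TCACGTGA or, where it is not complete, the E-box CACGTG inside it.
Gla: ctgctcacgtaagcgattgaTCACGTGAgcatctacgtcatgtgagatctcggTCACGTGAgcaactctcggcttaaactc
Mcoln1: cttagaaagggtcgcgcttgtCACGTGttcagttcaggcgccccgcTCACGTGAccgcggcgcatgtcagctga
Lamp1: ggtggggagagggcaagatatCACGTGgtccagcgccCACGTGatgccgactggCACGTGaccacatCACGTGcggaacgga
Atp6v1a: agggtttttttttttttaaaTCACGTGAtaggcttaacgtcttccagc
Ifi30: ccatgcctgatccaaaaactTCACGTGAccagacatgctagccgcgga
They lie at chrX:134601173-134601253 (minus strand), chr8:3500427-3500500 (plus), chr8:13159079-13159160 (plus), chr16:44139364-44139411 (minus) and chr8:70766833-70766880 (minus) in GRCm38.p6, and are written 5′ to 3′ along the gene. Gla holds the core 2 times, and Lamp1 holds 4 E-boxes and no core within its last 82 bases before the start site.

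The core TCACGTGA, its own reverse complement, was in the window of 6 of 30 members, or 20.0%: Atp6v0d1, Atp6v0e, Atp6v1a, Gla, Ifi30 and Mcoln1. Of 11089 tested genes with a window, 2.08% held it. The palindrome is known from the promoters of many lysosomal genes, so a larger share among the members was to be foreseen. The shorter E-box CACGTG, which the core contains, was in 11 of 30 members (36.7%) and in 11.4% of tested genes; the longer CLEAR consensus, the core with a G before it and a C after it, was in 0 of 30 and in 0.758%. The antioxidant response element of NRF2, searched by its common consensus on both strands, was in Hexa and Ifi30, 6.67% of members, and in 3.44% of tested genes. Among the 6 members with the core 4 were called higher and none lower, with a median log2 fold change of 0.51, and among the 24 without it 13 were higher and 3 lower, with a median of 0.38. A match is a run of letters and not a site of binding. Of the 6 members that rose over 2-fold, Atp6v0b held 2 E-boxes and Gaa 1, Lipa and Gpnmb held none of the 4 motifs, and Atp6v0d2 and Atp6v1h had no window.

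Levels of the members differed widely. By deposited TPM, Psap, Gpnmb and Lamp1 held the 3 highest places, in that order, in all 6 libraries, with means of 5990.0, 2053 and 916 TPM with IFN-γ alone. Gusb, Mitf and Tfeb were the last 3 in all 6, at 19.6, 11.7 and 5.34 TPM. The lengths behind these values cover all exons of a gene, 10713 bases for Mitf and 9588 for Gusb, so a gene mostly read from a shorter transcript has a TPM below its true level. Among pump genes, Atp6v0e, Atp6v1f, Atp6v0c, Atp6v1e1 and Atp6v1g1 had means of 510.1, 500.0, 452, 421 and 415 TPM with IFN-γ alone, and Atp6v1h and Atp6v0a1 only 45.5 and 55.6. All members together took 1.92% to 2.03% of counts with IFN-γ alone and 2.55% to 2.68% with 4-OI.

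Other genes of the lysosome, in 5 lists that hold no member, went both ways. So did all genes tested, of which 22.7% were called higher and 25.4% lower. Of 27 further lysosomal membrane proteins, 15 were higher and 2 lower, with a median log2 fold change of 0.39. Slc11a1, the metal transporter NRAMP1, went from 78.8 ± 4.21 to 469 ± 14.6 CPM (SD, n = 3), Mcoln2, a relative of Mcoln1, from 15.4 ± 1.74 to 69.1 ± 2.50 CPM (SD, n = 3), and Scarb2, the receptor that brings glucocerebrosidase to the lysosome, from 161 ± 2.36 to 284 ± 4.76 CPM (SD, n = 3) (edgeR adjusted p = 1.86e-06, 3.87e-06 and 5.35e-05). Of 28 further lysosomal enzymes and cofactors, 5 were higher and 12 lower, with a median of -0.13; the count of higher ones was 3 without IFN-γ replicate 3 or 4-OI replicate 1 or 2. The 3 with the smallest p all fell: Acp5, the tartrate-resistant phosphatase, from 202 ± 30.3 to 74.9 ± 2.80 CPM (SD, n = 3), and Ppt1, a palmitoyl thioesterase, and Plbd1 by 1.82-fold and 1.86-fold (edgeR adjusted p = 4.65e-05, 8.07e-05 and 9.09e-05). The 7 glycosidases among the members had a median of 0.38; the split between these lists is a choice of lists and was not tested.

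Delivery of hydrolases to the lysosome depends on a mannose 6-phosphate tag and its receptors. Of 20 genes of that route, 3 were higher and 4 lower, with a median of -0.05. Over all genes tested, 48.1% were called in either direction. The count of higher genes was 1 without IFN-γ replicate 2 or 3 or 4-OI replicate 2 and 0 without 4-OI replicate 1, and the count of lower ones was 2 without IFN-γ replicate 2 or 3 or any 1 library with 4-OI. Igf2r, the large mannose 6-phosphate receptor, had 85.7, 53.5 and 53.7 CPM with IFN-γ alone and 21.8, 20.0 and 18.2 CPM with 4-OI, 3.22-fold lower (edgeR adjusted p = 2.59e-04), and Gnptab, the enzyme that starts the tag, had 88.3, 63.8 and 64.4 CPM with IFN-γ alone and 41.0, 39.3 and 37.6 CPM with 4-OI, 1.84-fold lower (edgeR adjusted p = 0.00122). Both genes were highest in IFN-γ replicate 1, and their groups did not overlap. Vps26a, of the retromer that returns receptors, was 1.22-fold higher (edgeR adjusted p = 0.0126); it did not pass with total-count scaling (log2 fold change 0.032, edgeR adjusted p = 0.789) or without 4-OI replicate 1 (0.26 against 0.29, edgeR adjusted p = 0.0647).

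Of 22 genes that regulate the TFEB family or, for Tfec, belong to it, 10 were higher and 3 lower, with a median of 0.17. Among all genes tested, 22.7% were called higher and 25.4% lower. The count of lower genes was 6 without IFN-γ replicate 1, 1 without IFN-γ replicate 2 or 4-OI replicate 1 or 3, and 0 without 4-OI replicate 2. Rragd, a GTPase that with its partner brings TFEB and mTORC1 to the lysosome, had 6.25, 6.11 and 6.03 CPM with IFN-γ alone and 30.4, 30.3 and 32.2 CPM with 4-OI, a 5.05-fold rise with the groups far apart (edgeR adjusted p = 1.96e-06). Rraga, such a partner, and Rheb, the activator of mTORC1, were 1.67-fold and 1.55-fold higher (edgeR adjusted p = 0.00272 and 0.00145). Of 11 tested of 18 other pump subunits and assembly factors, 2 were higher and 3 lower, with a median of -0.26; the count of lower ones was 1 without 4-OI replicate 1 or 2. Rnasek, a small protein found with V0, and Tmem199, an assembly factor, were 2.20-fold and 1.81-fold higher, and Vma21, another assembly factor, was 1.34-fold lower (edgeR adjusted p = 0.00110, 6.26e-04 and 0.00661). Rnasek was highest in 4-OI replicate 3, at 204 CPM against 136 and 142. Over the 5 lists 35 of 108 tested genes were higher and 24 lower, beside 22.7% and 25.4% of all genes tested. The counts of the lists became 15 and 45 with total-count scaling, 53 and 33 without IFN-γ replicate 1 and 4-OI replicate 3, and 28 and 15 without 4-OI replicate 2.

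**Figure D4:**
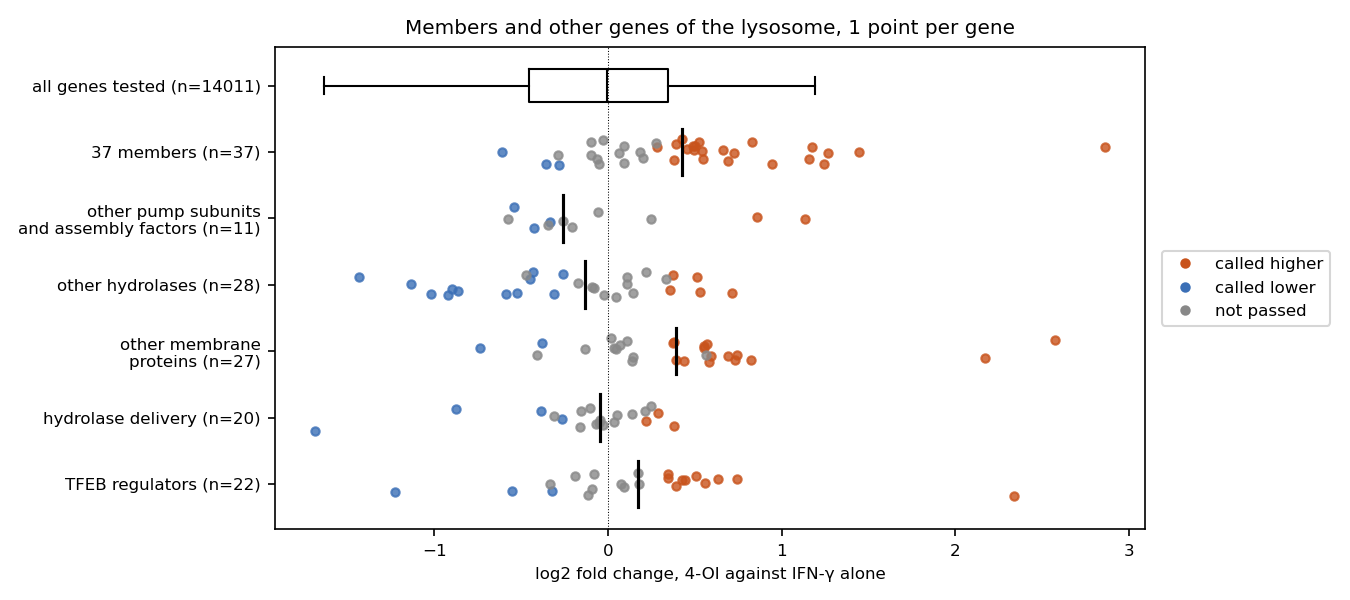
Log2 fold change of 4-OI against IFN-γ alone for the 37 members and the tested genes of 5 further lists, 1 point per gene coloured by call, with a line at each median; the box shows the quartiles and median of all 14011 genes tested and its whiskers the 5th and 95th percentiles. The median line stands at 0.43 for the members and 0.39 for other membrane proteins, and left of 0 for other pump genes and other hydrolases, at -0.26 and -0.13 (with total-count scaling, the median of all genes tested is -0.27).

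Markers of cell types that such cultures can hold also differed between groups. For comparison, 22.7% of all genes tested were called higher and 25.4% lower. The summed level of 14 macrophage genes was 2561 to 2703 CPM with IFN-γ alone and 3788 to 3855 with 4-OI, with 4 of 14 called higher and 3 lower; the sum rests mostly on Adgre1, Csf1r and Cd14, and the median log2 fold change of the list was -0.30. For 13 genes of conventional dendritic cells the sums were 1662 to 1719 and 1213 to 1239 CPM, with 1 of 12 tested higher and 9 lower, and for 10 monocyte genes 1939 to 2482 and 974 to 1087 CPM, with none higher and 8 lower. The 14 neutrophil genes summed to 3659 to 4387 and 3982 to 4670 CPM, with 2 higher and 9 lower. That sum includes S100a8, whose mean went from 569 to 1099 CPM, while the median log2 fold change of the list was -0.77. How far such shifts account for the changes of the lysosomal genes was not tested.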

How the data were processed

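Messenger RNA was sequenced in 6 libraries, 3 of each group, and each library has a table of 36706 genes. Per the file headers, the authors deposited raw read counts, FPKM and TPM for each gene. The submitters' processing notes name HISAT2 and the mouse build mm10; per the labels' protocols a stranded mRNA kit was used, while counting tool, strand setting and annotation were not given in the sources used here. The gene coordinates in the tables share a start or an end with GRCm38, the assembly also called mm10, for 1 of 37 members. For 21 members the distance from start to end is the same as there. The coordinates are thus not those of the build named in the notes, and they are printed as deposited, with no build. Recomputed from the counts and gene lengths, TPM matched the deposited TPM in 100% of values within a relative 1e-06, and FPKM were not used. Reads of overlapping genes could be counted for either. Beside the 3 members named with theirs, Ifi30, Hexa, Atp6v0b, Gaa, Glb1 and Npc1 share 5.02% to 15.8% of exon bases with another gene. For Glb1 it is Tmppe on the same strand, with 862 to 1116 counts in a library with IFN-γ alone and 490 to 685 with 4-OI. For Npc1 it is Rmc1 on the opposite strand, with 886 to 1470 counts in a library.

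Counts were tested with edgeR 4.0.16 in R 4.3.3 (robust quasi-likelihood fit of the 6 libraries, no covariate, TMM factors, filterByExpr with a minimum count of 10), and p-values were adjusted over all 14011 genes tested with a threshold of 0.05. Intervals of 95% come from the fit. No 2 libraries agreed within counting noise. The members and gene lists were chosen with earlier results of these data known. Genes named are all 37 members and, from each of the 5 other lists, the 3 with the smallest adjusted p; others are named as chosen after their values were seen. Alternatives were other scaling factors, other filters, limma-voom (limma 3.58.1), DESeq2 1.42.0, the replicate number as a block and leaving out each library, and, added after seeing the data, leaving out both libraries that stood apart.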

Additional observations from a re-analysis of the deposited data

How the results depend on the processing

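Scaling mattered most. With total counts alone 13 members were higher and 9 lower, and in the 5 other lists 15 and 45, and the log2 fold changes of Atp6v0c (-0.055), Atp6v0d1 (-0.20), Atp6v1d (-0.17), Glb1 (-0.073) and Ifi30 (-0.17) turned negative, because that scaling lowers the median of all genes; RLE and upper quartile factors, both filters, limma-voom and DESeq2 gave 21 or 22 members higher and 2 or 3 lower. Without IFN-γ replicate 1 and 4-OI replicate 3, chosen after seeing the data, 24 members were higher and 8 lower and 53 genes of the other lists higher, 9296 genes were called in all against 6736, and Atp6v0d1 (-0.11), Atp6v1d (-0.061), Man2b1 (0.023) and Ifi30 (-0.15) changed sign; the cause was not tested. Leaving out 1 library at a time gave 18 to 22 members higher and 1 to 4 lower, 26 to 39 genes of the other lists higher and 15 to 30 lower, and 5275 to 7835 genes called in all. Its log2 fold changes spanned 0 for Atp6v0d1 (-0.033 to 0.14), Atp6v1d (-0.0093 to 0.18), Ifi30 (-0.058 to 0.21), Npc2 (-0.19 to 0.043), Tfeb (-0.11 to 0.088) and Atp6ap2 (-0.17 to 0.015). With CPM in place of TPM the share of Atp6v0d2 among d subunits was 17.8 percentage points higher with 4-OI, and Atp6v0d2 was the larger in both groups. Of the 22 members called higher, 13 kept that call in all 15 alternatives, and no called member changed direction in any. Deviations of same-numbered replicates had correlations of 0.26, -0.10 and 0.19, and those of differently numbered ones ran from -0.34 to 0.31. Deviations within a group sum to 0, so these values cannot decide whether the numbers pair the libraries, and the labels do not say. With the replicate block 23 members were higher and 4 lower and 7513 genes were called. Atp6v1g1 was gained as higher and Lgmn as lower (edgeR adjusted p = 0.0260 and 0.0228). With 3 libraries a group, a difference whose interval includes 0 cannot be told from 0.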
